A study of Mus musculus musculus x Mus musculus castaneus with 12 samples.

Results

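The genes described are the KDM6 demethylases *Kdm6a* and *Kdm6b* and 8 subunits of the KMT2C/D complex, *Kmt2c*, *Kmt2d*, *Ncoa6*, *Paxip1*, *Wdr5*, *Ash2l*, *Rbbp5* and *Dpy30*. They were chosen by name, as KDM6A, its closest autosomal paralogue and the proteins it works with, and make up 10 of the 24346 genes in the count files. All 10 were found by symbol and all 10 passed the filter on low values in every comparison. RNA-seq had been done on 12 samples of F1 hybrid mouse embryonic stem (ES) cells from reciprocal crosses of *Mus musculus* C57BL6 (BL6) and *Mus castaneus* (*cast*), called BC where BL6 is the mother and CB where *cast* is the mother. In BC there were 2 male wt samples, 2 male clones with an exonic deletion of *Kdm6a* (ΔE1 and ΔE3), 1 male clone with a promoter deletion (ΔP4) and 2 female wt samples. In CB there were 2 male wt samples, 2 exonic clones (ΔE2.5 and ΔE2.7) and 1 promoter clone (ΔP2.1). The question was whether loss of *Kdm6a* goes with a change of *Kdm6b* or of the partner subunits.

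Each knockout (KO) sample is a cell clone, so a change in a clone and a change caused by the edit cannot be told apart from a single clone. According to the study, ΔE1 and ΔE3 arose from the same editing event and share an off-target deletion of *Sh3kbp1*, *Map3k15* and *Pdha1*, and the wt CB line carries an actin-GFP transgene. Diploid fragments per sample ranged from 49975599 to 89070402. The summed level of 8 pluripotency genes was 6411 to 6804 TPM (transcript abundance scaled for length and depth) in male BC wt, 6071 to 7885 in BC KO, 4711 to 4803 in CB wt and 5404 to 5673 in CB KO. *Pou5f1*, *Sox2* and *Nanog*, the defining markers of ES cells, were detected in every sample. The summed level of 8 fibroblast genes, markers of feeder cells, was 33.8 to 36.3 TPM in BC wt, 12.5 to 25.4 in BC KO, 82.4 to 89.0 in CB wt and 27.2 to 134 in CB KO. That of 6 primitive endoderm genes was 8.51 to 8.69 TPM in BC wt, 12.2 to 14.6 in BC KO, 25.2 to 25.4 in CB wt and 8.10 to 18.2 in CB KO, so it lay above wt in all BC clones and below wt in all CB clones. Between exonic clones and wt, 2 of 8 pluripotency genes were called higher and 2 of 7 fibroblast genes tested were called lower in each cross. Of 6 primitive endoderm genes, *Gata4* was called higher and *Foxa2* lower in CB. Of all genes, 8.7% were called in the BC exonic clones and 14.7% in the CB exonic clones. In the promoter clones *Utf1* and *Col1a2* (ΔP4) and *Foxa2* (ΔP2.1) were called lower, where 4.24% (ΔP4) and 1.36% (ΔP2.1) of all genes were called. With all KO clones no marker was called in either cross, against 0.029% (BC) and 0% (CB) of all genes. The part of these differences in the results was not tested.

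KDM6A, also called UTX, and KDM6B, also called JMJD3, remove methyl groups from lysine 27 of histone H3, a mark laid down by Polycomb that goes with gene silencing. KDM6A is at the same time a subunit of the complexes built on KMT2C and KMT2D, the methyltransferases that place monomethylation of lysine 4 of histone H3 at enhancers. NCOA6, PAXIP1 (PTIP) and PAGR1 are found in these complexes beside KDM6A, whereas WDR5, RBBP5, ASH2L and DPY30 form the core that all KMT2 and SET1 methyltransferases share and that stimulates their activity. Mutations of *KMT2D* or *KDM6A* cause Kabuki syndrome in human. *Kdm6a* is X-linked and escapes X inactivation, and *Uty* is its Y-linked homologue.

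The 4 guides that made the deletions are shown because they fix which part of the *Kdm6a* transcript could still be counted in a clone. They are printed 5′ to 3′ with the PAM, the motif Cas9 needs beside its target, in capitals.
ΔE Left: gaaacctcacgaacccgaaaAGG
ΔE Right: tagcattatctgcataccagAGG
ΔP Left: ggacactgcatgtttgatggAGG
ΔP Right: agctacatactccaaaggagAGG
In GRCm38 (mm10), *Kdm6a* lies at chrX:18162575-18279936 on the plus strand, and the transcript used for its length has 29 exons and 5935 bases. The ΔE Left guide site, at chrX:18163390-18163409, is inside exon 2. The ΔE Right site, at chrX:18208733-18208752, lies over the start of exon 4, with 17 of its 20 bases in the exon. Between the outer ends of these sites are 45363 bp of genome but 184 bp of transcript, 3.10% of its length. The ΔP Left site, at chrX:18160528-18160547, is upstream of the gene, and the ΔP Right site, at chrX:18164295-18164314, is in an intron. They enclose 3787 bp with the annotated start, exon 1, exon 2 and 662 bp of the transcript, 11.2% of its length.

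*Kdm6a* was lower in every KO clone than in both wt samples of its cross, and far lower in promoter clones than in exonic clones. Its level was 49.9 and 51.3 TPM in the male BC wt samples, 11.6 (ΔE1), 13.5 (ΔE3) and 0.0441 TPM (ΔP4) in the clones. In CB it was 51.1 and 51.8 TPM in wt, 2.07 (ΔE2.5), 7.29 (ΔE2.7) and 0.0365 TPM (ΔP2.1) in the clones. The promoter clones held 8 fragments (ΔP4) and 4 fragments (ΔP2.1) over the whole gene, against 2236 and 2470 in the BC exonic clones and 245 and 835 in the CB exonic clones. Thus the exonic clones kept 23.0%, 26.7%, 4.03% and 14.2% of the mean wt level (ΔE1, ΔE3, ΔE2.5 and ΔE2.7, in this order), although the deleted stretch holds only 3.10% of the transcript. These are levels of RNA. The study reports low expression of exons past the deletion in exonic clones, while its Western blot found KDM6A protein fully lost.

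Clones were compared with wt by the quasi-likelihood test of edgeR, with p adjusted over all genes of the fit (Benjamini-Hochberg), and a call means an adjusted p under 0.05 at any fold. P-values measure the spread between these samples, which may be partly technical. The fits for exonic and promoter clones held all 12 samples in 7 groups, and the spread came from the groups with 2 samples, the female pair among them. The single promoter clone of a cross was thus assumed to vary like the other groups. Log2 fold changes of *Kdm6a* were -2.02 in the BC exonic clones (SE 0.42, adjusted p = 0.0235 by edgeR) and -3.38 in the CB exonic clones (SE 0.45, adjusted p = 0.00349). They were -10.23 in ΔP4 (SE 0.99, adjusted p = 0.00546) and -10.37 in ΔP2.1 (SE 1.06, adjusted p = 0.00582). The exonic clones lay above the promoter clone by 8.21 in BC (adjusted p = 0.00586) and 6.98 in CB (adjusted p = 0.0139) on the log2 scale. The BC exonic call was lost without ΔE3 (-2.14, adjusted p = 0.0504), without wt 1 (-2.06, adjusted p = 0.117) and without wt 2 (-1.99, adjusted p = 0.133). When exonic and promoter clones were put in 1 group of 3, the difference between clones entered the error, and *Kdm6a* was not called (-2.60 in BC, adjusted p = 0.509; -3.95 in CB, adjusted p = 0.190). In that grouping it was called without ΔP4 (-2.03, adjusted p = 0.0470) and without ΔP2.1 (-3.37, adjusted p = 0.0428).

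**Figure D1:**
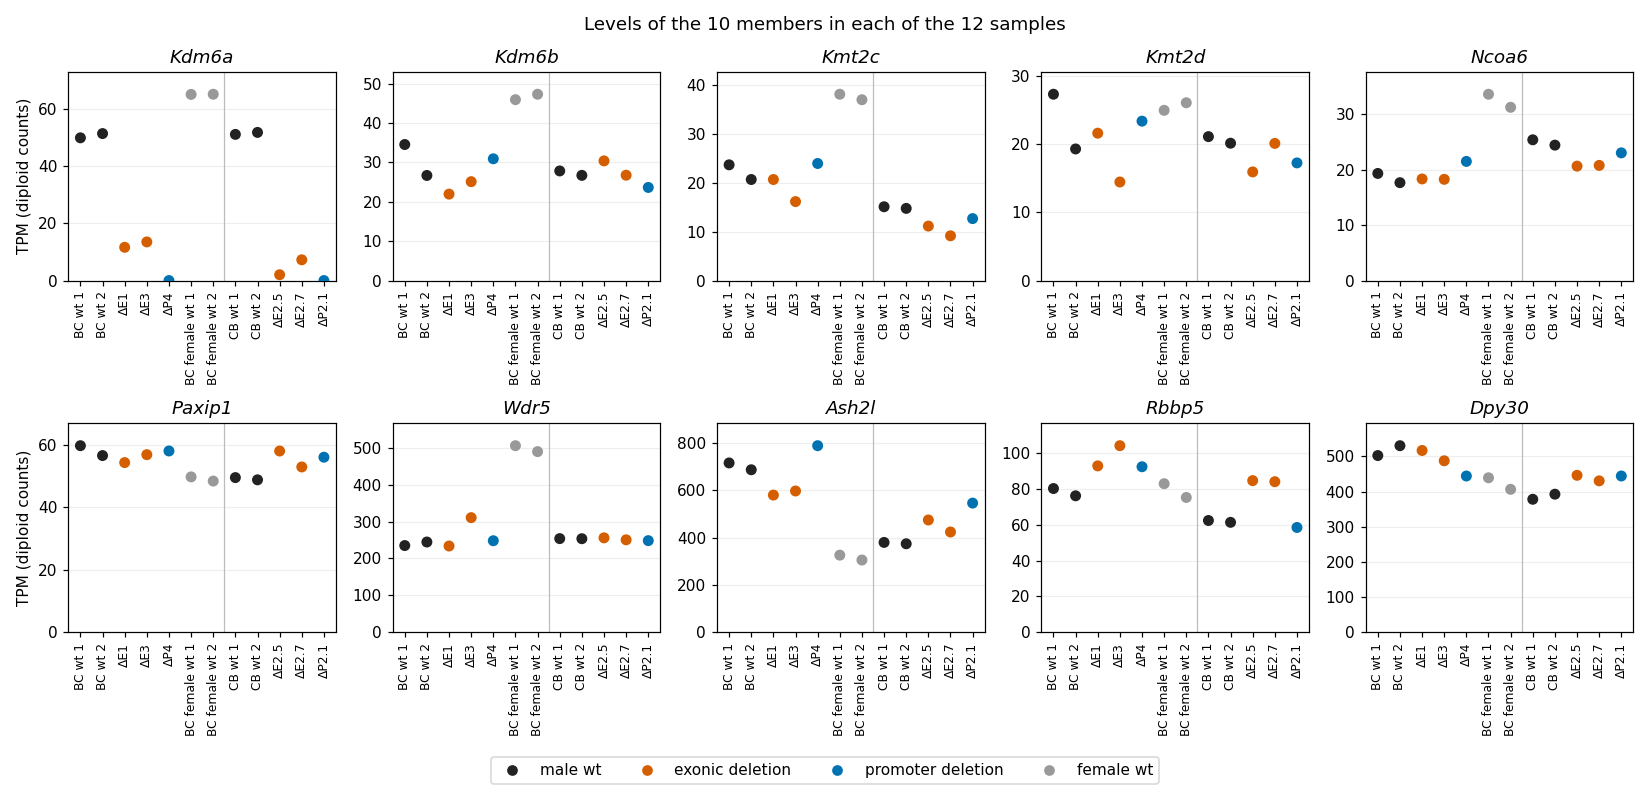
Level of each of the 10 genes (vertical axes, TPM from 0) in the 12 samples (horizontal axes), 1 point per sample, colored by genotype and sex, with BC left and CB right of the grey line. *Kdm6a* falls to between 0.0365 and 13.5 TPM in the 6 KO clones, whereas the highest and the lowest sample of any other gene are at most 4.16-fold apart.

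The partners differed in level among themselves. Per transcript length, the mean over the 4 male wt samples was highest for the core subunits *Ash2l* (539 TPM), *Dpy30* (451 TPM) and *Wdr5* (247 TPM), and *Rbbp5*, the remaining core subunit, was at 70.1 TPM. *Paxip1* (53.7 TPM) and *Kdm6a* (51.0 TPM) followed, and then *Kdm6b* (29.0 TPM), *Kmt2d* (22.0 TPM), *Ncoa6* (21.7 TPM) and *Kmt2c* (18.6 TPM). The wt ranges of *Ash2l* (374 to 716 TPM) and *Dpy30* (378 to 531 TPM) overlapped, as did those of *Paxip1* (48.9 to 59.8 TPM) and *Kdm6a* (49.9 to 51.8 TPM). *Rbbp5* (61.4 to 80.3 TPM) did not overlap with *Paxip1*, and *Kdm6b* (26.7 to 34.6 TPM) overlapped with *Kmt2d* (19.3 to 27.3 TPM). The ranges of *Kmt2d*, *Ncoa6* (17.6 to 25.4 TPM) and *Kmt2c* (14.8 to 23.7 TPM) overlapped with each other. The core subunits thus lay above the methyltransferases. With the union of all exons as length, *Dpy30* (459 TPM) came first and *Ash2l* (294 TPM) was close to *Wdr5* (292 TPM), so the order within the core rests on the transcript chosen, while *Kdm6a* (53.3 TPM) lay above *Paxip1* (45.2 TPM). In bulk samples, fewer expressing cells and less RNA per cell cannot be told apart.

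With the 3 KO clones of a cross in 1 group, no member was called. In BC 0 of 10 were called by edgeR and 0 had an unadjusted p under 0.05. Of all 13804 genes tested there, 0.029% were called and 1525 had an unadjusted p under 0.05. In CB 0 of 10 were called and 5 had an unadjusted p under 0.05. Of all 13801 genes tested there, 0% were called and 2834 had an unadjusted p under 0.05. In a joint fit of the crosses, 0 of 10 were called and 3 had an unadjusted p under 0.05. Of all 14297 genes in that fit, 0% were called and 1443 had such a p. DESeq2 called 0 members in BC and over both crosses, but 3 in CB, *Paxip1*, *Ash2l* and *Dpy30*, where its own share of all genes called was 2.27% in BC, 1.04% over both crosses and 8.38% in CB. The KO effect was not called as different between the crosses for any member (0 of 10 by edgeR and by DESeq2). By edgeR 3 members had an unadjusted p under 0.05. Of all 14297 genes edgeR called 0.063%, and 2395 had such a p.

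The median log2 fold change of the 10 members was -0.14 in BC and 0.06 in CB, beside 0.01 for all genes tested in each cross. The TPM of all 3 KO clones lay on the same side of both wt samples for 2 members in BC (*Kdm6a* lower, *Rbbp5* higher), where this was so for 31.8% of all genes. The same held in CB for 7 members, 3 higher (*Paxip1*, *Ash2l*, *Dpy30*) and 4 lower (*Kdm6a*, *Kmt2c*, *Kmt2d*, *Ncoa6*), against 47.0% of all genes. *Kdm6a* was the member with this pattern in the same direction in both crosses.

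With the deletion types apart, the calls were few beside *Kdm6a* itself. In the BC exonic clones 2 of 10 members were called, *Kdm6a* lower and *Rbbp5* higher, where 8.7% of all genes were called. In the CB exonic clones 4 of 10 were called, *Kdm6a* and *Kmt2c* lower and *Ash2l* and *Rbbp5* higher, against 14.7% of all genes. In ΔP4 *Kdm6a* was called alone (1 of 10, against 4.24% of all genes). In ΔP2.1 *Kdm6a* was called lower and *Ash2l* higher (2 of 10, against 1.36% of all genes). Exonic and promoter clones differed in *Kdm6a* in BC (1 of 10, against 6.37% of all genes) and in *Kdm6a* and *Rbbp5* in CB (2 of 10, against 5.79%). The 2 wt samples of a cross are shared by these comparisons, so they are not independent of each other.

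**Figure D2:**
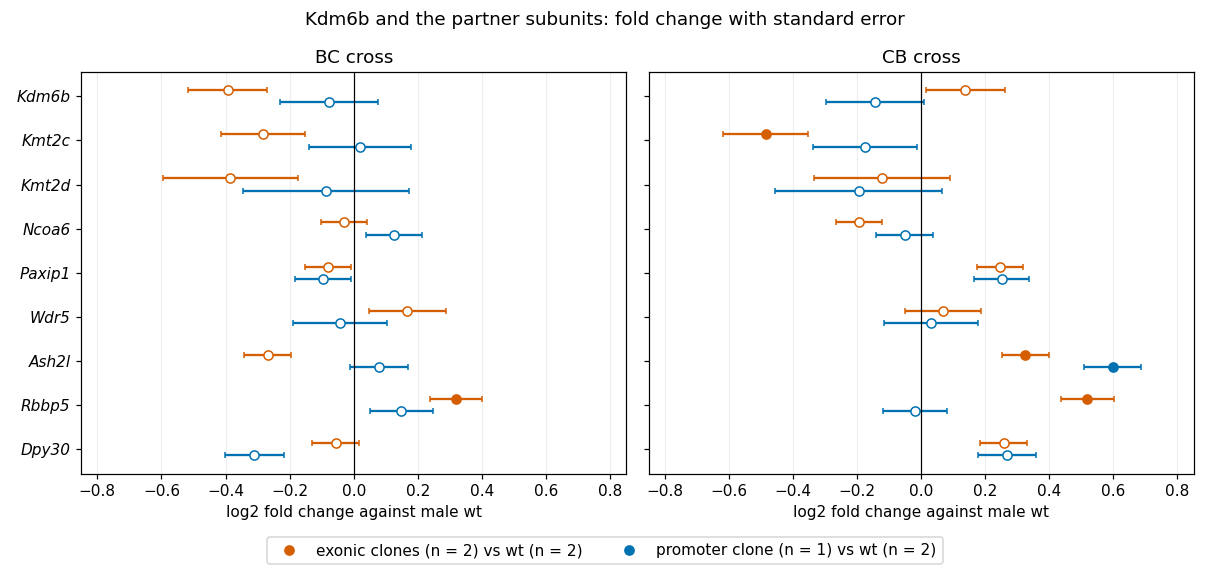
Log2 fold change against the male wt samples of the cross (horizontal axis) for *Kdm6b* and the 8 subunits (vertical axis), for exonic clones (orange) and the promoter clone (blue), with bars of 1 SE from edgeR. Filled points have an adjusted p under 0.05, and these are *Rbbp5* in the BC exonic clones, *Kmt2c*, *Ash2l* and *Rbbp5* in the CB exonic clones, and *Ash2l* in the CB promoter clone.

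*Kdm6b* lies at chr11:69398508-69413675 on the minus strand, and the antisense gene *Kdm6bos* overlaps 286 bp of its exons, which these libraries without strand information cannot separate. Its level was 34.6 and 26.7 TPM in BC wt, 22.0 (ΔE1), 25.1 (ΔE3) and 30.9 TPM (ΔP4) in the clones. For CB the values were 27.9 and 26.7 TPM in wt, 30.4 (ΔE2.5), 26.8 (ΔE2.7) and 23.7 TPM (ΔP2.1) in the clones. Both BC exonic clones were below both wt samples, while ΔP4 lay between the wt samples and the CB clones lay on both sides of wt. The log2 fold change in KO was -0.28 in BC (SE 0.17, adjusted p = 0.584) and 0.06 in CB (SE 0.12, adjusted p = 0.803), and over both crosses it was -0.12 (SE 0.12, adjusted p = 0.773). The CB value turned to -0.03 without ΔE2.5. In the BC exonic clones it was -0.39 (SE 0.12, adjusted p = 0.0896 by edgeR, 0.0365 by DESeq2), and in the CB exonic clones 0.14 (SE 0.12, adjusted p = 0.482). The promoter clones gave -0.08 in BC (adjusted p = 0.789) and -0.14 in CB (adjusted p = 0.658). No rise of *Kdm6b* was called in any KO comparison, by edgeR or by DESeq2.

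*Kmt2c*, at chr5:25271798-25498783 on the minus strand, shares 274 bp of exons with *Gm42585* on the other strand. It was at 23.7 and 20.7 TPM in BC wt, 20.7 (ΔE1), 16.2 (ΔE3) and 23.99 TPM (ΔP4) in the clones. In CB it was at 15.1 and 14.8 TPM in wt, 11.2 (ΔE2.5), 9.18 (ΔE2.7) and 12.7 TPM (ΔP2.1) in the clones. All CB clones were below both wt samples, whereas BC clones overlapped with wt. The fall in the CB exonic clones was called at a log2 fold change of -0.48 (SE 0.13, adjusted p = 0.0436), and the call was lost without ΔE2.7 (-0.36, adjusted p = 0.148), without wt 1 (-0.48, adjusted p = 0.203) and without wt 2 (-0.49, adjusted p = 0.187). In the BC exonic clones the value was -0.28 (SE 0.13, adjusted p = 0.223), and it was called without ΔE1 (-0.46, adjusted p = 0.0248). With all 3 clones of a cross it was -0.18 in BC (adjusted p = 0.720) and -0.37 in CB (adjusted p = 0.222), and over both crosses -0.27 (SE 0.11, adjusted p = 0.471).

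*Kmt2d*, the other enhancer methyltransferase, at chr15:98831669-98871204, was not called in any KO comparison that used all libraries. It was at 27.3 and 19.3 TPM in BC wt, and at 21.6, 14.5 and 23.4 TPM in ΔE1, ΔE3 and ΔP4. The CB wt samples held 21.1 and 20.1 TPM, and ΔE2.5, ΔE2.7 and ΔP2.1 held 15.9, 20.1 and 17.2 TPM. ΔE3 was below both BC wt samples and ΔE1 between them, and the value of the BC exonic clones (-0.38, SE 0.21, adjusted p = 0.306) was called without ΔE1 (-0.70, adjusted p = 0.0426). The log2 fold change in KO was -0.28 in BC (SE 0.22, adjusted p = 0.678) and -0.14 in CB (SE 0.12, adjusted p = 0.530).

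Among the subunits particular to the KMT2C/D complexes, *Ncoa6* was not called in any KO comparison, and the call of *Paxip1* depended on the setting. *Ncoa6*, a nuclear receptor coactivator at chr2:155390656-155473894, was at 19.3 and 17.6 TPM in BC wt and at 18.3, 18.2 and 21.5 TPM in ΔE1, ΔE3 and ΔP4. The CB values were 25.4 and 24.4 TPM in wt and 20.6, 20.8 and 23.0 TPM in ΔE2.5, ΔE2.7 and ΔP2.1, a log2 fold change in KO of -0.14 (SE 0.08, adjusted p = 0.368) beside 0.02 in BC (SE 0.12, adjusted p = 0.960). *Paxip1*, a protein with BRCT repeats at chr5:27740080-27791691, held 59.8 and 56.6 TPM in BC wt and 54.4, 56.9 and 58.1 TPM in ΔE1, ΔE3 and ΔP4. Its CB wt samples held 49.6 and 48.9 TPM, and ΔE2.5, ΔE2.7 and ΔP2.1 held 58.1, 53.0 and 56.1 TPM. The 3 CB clones were above both wt samples, with a log2 fold change of 0.26 (SE 0.07, adjusted p = 0.172 by edgeR, 0.0452 by DESeq2), beside -0.09 in BC (SE 0.10, adjusted p = 0.789). In the CB exonic clones it was 0.25 (adjusted p = 0.0529 by edgeR, 0.0271 by DESeq2). This was called by edgeR at 0.30 without ΔE2.7 (adjusted p = 0.0319) and at 0.27 with scaling factors computed without chromosomes 1 and 8 (adjusted p = 0.0347). The difference between crosses was 0.33 (SE 0.12, adjusted p = 0.219). *Pagr1a*, the gene of the PAGR1 subunit, ranged from 86.1 to 116 TPM over the 12 samples and was not called in a KO comparison. Its values are uncertain, since 98.7% of its 75-base stretches also occur in the transcripts of *Pagr1b* or *Gm42742*.

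Of the core subunits, *Wdr5* at chr2:27515157-27536535, which binds the histone H3 tail and holds the core together, did not leave the range of 248 to 256 TPM in CB. It was at 254 and 253 TPM in CB wt and at 256, 250 and 248 TPM in ΔE2.5, ΔE2.7 and ΔP2.1, a log2 fold change of 0.06 (SE 0.07, adjusted p = 0.596). In BC it was at 235 and 244 TPM in wt, 234 (ΔE1), 310 (ΔE3) and 248 TPM (ΔP4) in the clones, and ΔE3 stood alone above the rest. The BC value was 0.10 with all clones (SE 0.15, adjusted p = 0.846) and -0.05 without ΔE3. In the exonic clones it was 0.17 (adjusted p = 0.434), called at 0.37 with ΔE3 as the only exonic clone (adjusted p = 0.00854) and -0.06 with ΔE1 as the only exonic clone (adjusted p = 0.653). Each of these clones of the same editing event is 1 library, so clone and library cannot be told apart in this difference of *Wdr5*.

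*Dpy30*, at chr17:74299474-74323944, encodes the small subunit that docks on ASH2L. It was at 503 and 531 TPM in BC wt and at 517, 488 and 444 TPM in ΔE1, ΔE3 and ΔP4. In CB it was at 378 and 393 TPM in wt and at 446, 431 and 444 TPM in ΔE2.5, ΔE2.7 and ΔP2.1. The CB clones were above wt by a log2 fold change of 0.27 (SE 0.07, adjusted p = 0.160 by edgeR, 0.0171 by DESeq2), and the CB exonic clones by 0.26 (adjusted p = 0.0518 by edgeR, 0.0281 by DESeq2). The latter was called by edgeR at 0.28 with scaling factors computed without chromosomes 1 and 8 (adjusted p = 0.0369). ΔP4 was below both BC wt samples at -0.31 (SE 0.09, adjusted p = 0.0906 by edgeR, 0.0263 by DESeq2), and the difference between the crosses with all clones was 0.40 (SE 0.14, adjusted p = 0.223).

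*Ash2l*, at chr8:25815996-25847694 on the minus strand, encodes the subunit that binds RBBP5 and activates the methyltransferase. It was at 716 and 687 TPM in BC wt, 580 (ΔE1), 597 (ΔE3) and 788 TPM (ΔP4) in the clones. Among CB samples it was at 379 and 374 TPM in wt, 474 (ΔE2.5), 424 (ΔE2.7) and 546 TPM (ΔP2.1) in the clones. So it was lower than wt in the BC exonic clones, higher than wt in all CB clones, and higher in the promoter clone than in the exonic clones of either cross. The log2 fold change was 0.33 in the CB exonic clones (SE 0.07, adjusted p = 0.0242) and 0.60 in ΔP2.1 (SE 0.09, adjusted p = 0.0256). Both calls were lost when wt 1 was left out (0.33, adjusted p = 0.163, and 0.60, adjusted p = 0.215) or wt 2 (0.32, adjusted p = 0.170, and 0.59, adjusted p = 0.257). In the BC exonic clones it was -0.27 (SE 0.07, adjusted p = 0.0615 by edgeR, 0.00984 by DESeq2, and -0.29 with 0.0391 by edgeR with scaling factors computed without chromosomes 1 and 8) and in ΔP4 0.08 (adjusted p = 0.636). Exonic against promoter gave -0.35 in BC (adjusted p = 0.0580 by edgeR, 0.0114 by DESeq2) and -0.27 in CB (adjusted p = 0.122 by edgeR, 0.0490 by DESeq2). By edgeR the BC value was called without ΔE3 (-0.36, adjusted p = 0.0425) and with the same change of scaling (-0.35, adjusted p = 0.0476), and the CB value without ΔE2.5 (-0.34, adjusted p = 0.0394). With all clones the values were -0.15 in BC (SE 0.13, adjusted p = 0.725) and 0.43 in CB (SE 0.11, adjusted p = 0.169), and the difference between crosses was 0.56 (SE 0.19, adjusted p = 0.204).

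*Rbbp5*, at chr1:132477365-132505659 on the plus strand, encodes a WD40 protein that bridges ASH2L and the methyltransferase, and 2.90% of its 75-base stretches also occur in *Gm11977*. It was at 80.3 and 76.2 TPM in BC wt, 93.0 (ΔE1), 104 (ΔE3) and 92.5 TPM (ΔP4) in the clones. In CB the level was 62.4 and 61.4 TPM in wt, 84.7 (ΔE2.5), 84.1 (ΔE2.7) and 58.5 TPM (ΔP2.1) in the clones. All BC clones and both CB exonic clones were above wt, and ΔP2.1 was below. The rise in the CB exonic clones was 0.52 on the log2 scale (SE 0.08, adjusted p = 0.00608), and was not called without wt 1 (0.52, adjusted p = 0.0727) or wt 2 (0.51, adjusted p = 0.0775). The CB exonic clones differed from ΔP2.1 by 0.54 (SE 0.10, adjusted p = 0.0226). The rise in the BC exonic clones was 0.32 (SE 0.08, adjusted p = 0.0475), and was not called without ΔE3 (0.23, adjusted p = 0.113), wt 1 (0.34, adjusted p = 0.180) or wt 2 (0.29, adjusted p = 0.249), nor with no filter on low values (0.31, adjusted p = 0.0698) or with scaling factors computed without chromosomes 1 and 8 (0.29, adjusted p = 0.0604). ΔP4 gave 0.15 (adjusted p = 0.387) and ΔP2.1 -0.02 (adjusted p = 0.946). With all clones the values were 0.26 in BC (SE 0.12, adjusted p = 0.472) and 0.37 in CB (SE 0.18, adjusted p = 0.314), the latter 0.53 and called without ΔP2.1 (adjusted p = 0.0201), and over both crosses 0.31 (SE 0.11, adjusted p = 0.390).

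The median of other genes on the chromosomes of *Ash2l* and *Rbbp5* differed from wt in some clones. The reference itself, BC wt, had allele shares on both chromosomes unlike those of other autosomes, as given below. Relative to the wt mean of the cross, the median log2 ratio of 744 other genes on chromosome 8 was -0.47 in ΔE1 and -0.51 in ΔE3, and -0.56 and -0.57 for the 79 genes within 10 Mb of *Ash2l*. *Ash2l* itself was at -0.29 and -0.24 in these clones, just above the upper quartile of these 79 genes (-0.34 and -0.32). In ΔP4 the chromosome 8 median was 0.03, and in the CB clones it lay between -0.04 and -0.01, so that the rise of *Ash2l* in ΔE2.5 (0.40), ΔE2.7 (0.25) and ΔP2.1 (0.60) had no counterpart in the median of its chromosome. On chromosome 1 the median of 789 other genes was 0.50 in ΔE2.5 and 0.42 in ΔE2.7, close to the ratio of *Rbbp5* in both clones (0.52). In ΔP2.1 it was -0.08, beside -0.02 for *Rbbp5*. In BC the chromosome 1 median was 0.02 in ΔE1, 0.01 in ΔE3 and 0.07 in ΔP4, and *Rbbp5* was at 0.23, 0.40 and 0.15. For the 105 genes within 10 Mb of *Rbbp5* the medians were 0.11, -0.02 and 0.14. The part of the chromosome-wide differences in the values of these genes was not tested.

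Fragments with SNPs showed which allele carried these differences. For *Ash2l*, BL6 made up 67.0% (95% Wilson interval 65.9% to 68.0%) and 63.9% (62.3% to 65.4%) of SNP fragments in BC wt and 66.1% (64.6% to 67.5%) in ΔP4, but 52.0% (50.8% to 53.2%) in ΔE1 and 52.9% (51.1% to 54.7%) in ΔE3. The groups did not overlap, and the medians of other chromosome 8 genes were 66.8% and 67.2% in wt, 67.7% in ΔP4, 51.1% in ΔE1 and 51.6% in ΔE3. Medians of the autosomes other than 1 and 8 lay between 47.1% and 52.9% in the 10 male samples. On chromosome 8 ΔE1 and ΔE3 fell in this range, while BC wt and ΔP4 lay above it, and the cause was not tested. Splitting the TPM of *Ash2l* by these shares gave 479 and 439 TPM for BL6 in wt, 521 TPM in ΔP4, 302 TPM in ΔE1 and 316 TPM in ΔE3. For *cast* it gave 236 and 248 TPM in wt, 267 TPM in ΔP4, 278 TPM in ΔE1 and 281 TPM in ΔE3. The log2 change of the BL6-to-*cast* ratio against wt was -0.72 in the BC exonic clones (SE 0.10, adjusted p = 0.00134 by edgeR) and 0.04 in ΔP4 (adjusted p = 1), and exonic against promoter it was -0.76 (SE 0.12, adjusted p = 0.00445). In the CB samples the BL6 share of *Ash2l* stayed between 48.4% and 50.3%. The chromosome 8 median was 52.0% and 51.8% in CB wt, 51.8% in ΔE2.5 and 51.5% in ΔE2.7, but 45.4% in ΔP2.1. The last value was below the range of the other autosomes. Within 10 Mb of *Ash2l* the median was 53.3% and 53.4% in CB wt and 44.8% in ΔP2.1, where *Ash2l* itself was at 49.9%. The part of this shift in the level of *Ash2l* in ΔP2.1 was not tested. The share of all *Ash2l* fragments that held a SNP itself differed between libraries, from 4.81% in ΔE3 to 11.02% in BC wt 1, also between the BC wt samples (5.31% in wt 2). It was 10.7% in ΔE1 and 5.13% in ΔP4. *Dpy30* split the male BC libraries alike, at 7.68% and 7.16% in wt 1 and ΔE1 against 9.72%, 10.0% and 9.90% in wt 2, ΔE3 and ΔP4. ΔE1 and ΔE3 thus lay on opposite sides of this split, and its cause was not tested. Intervals cover counting error only.

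*Rbbp5* had a BL6 share of 65.3% and 67.3% in BC wt and of 64.4% to 66.1% in the BC clones, like the chromosome 1 median of 67.7% to 68.2%. In CB its share was 51.0% (95% Wilson interval 48.0% to 53.9%) and 51.9% (48.8% to 54.999%) in wt, 64.9% (62.5% to 67.3%) in ΔE2.5, 33.3% (31.0% to 35.7%) in ΔE2.7 and 28.2% (25.5% to 31.1%) in ΔP2.1. Thus the exonic clones of CB had a like total level but opposite allele shares. Split by allele, the BL6 level was 31.8 and 31.9 TPM in wt, 55.01 TPM in ΔE2.5 and 28.0 TPM in ΔE2.7. The *cast* level was 30.6 and 29.5 TPM in wt, 29.7 TPM in ΔE2.5 and 56.1 TPM in ΔE2.7. The chromosome 1 medians were 52.5% in both wt samples, 68.4% in ΔE2.5 and 35.3% in ΔE2.7. In ΔP2.1 the median was 48.7% on the chromosome and 46.7% within 10 Mb, and the BL6 level of *Rbbp5* was 16.5 TPM beside 42.0 TPM for *cast*, so there *Rbbp5* departed from its neighbours. This was not particular to ΔP2.1. In the female BC wt samples the BL6 share of *Rbbp5* was 25.3% and 27.2%, beside medians of 46.5% and 45.7% within 10 Mb. As the shares of ΔE2.5 and ΔE2.7 lay on opposite sides of wt, their group gave a log2 change of -0.16 (SE 0.42, adjusted p = 1), while it was called at -1.03 without ΔE2.5 (adjusted p = 5.49e-06) and at 0.71 without ΔE2.7 (adjusted p = 0.000351) in the opposite direction. The exonic clones against ΔP2.1 gave 1.22 (SE 0.52, adjusted p = 0.273), and 2.09 without ΔE2.7. ΔP2.1 against wt gave -1.37 (SE 0.53, adjusted p = 0.201). The opposite shares of ΔE2.5 and ΔE2.7 entered the spread of *Rbbp5* in every contrast of this fit, also in BC (SE 0.39 for exonic clones against wt). The adjusted p of ΔP2.1 thus holds the difference between other clones and cannot tell how firm its own shift is.

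**Figure D3:**
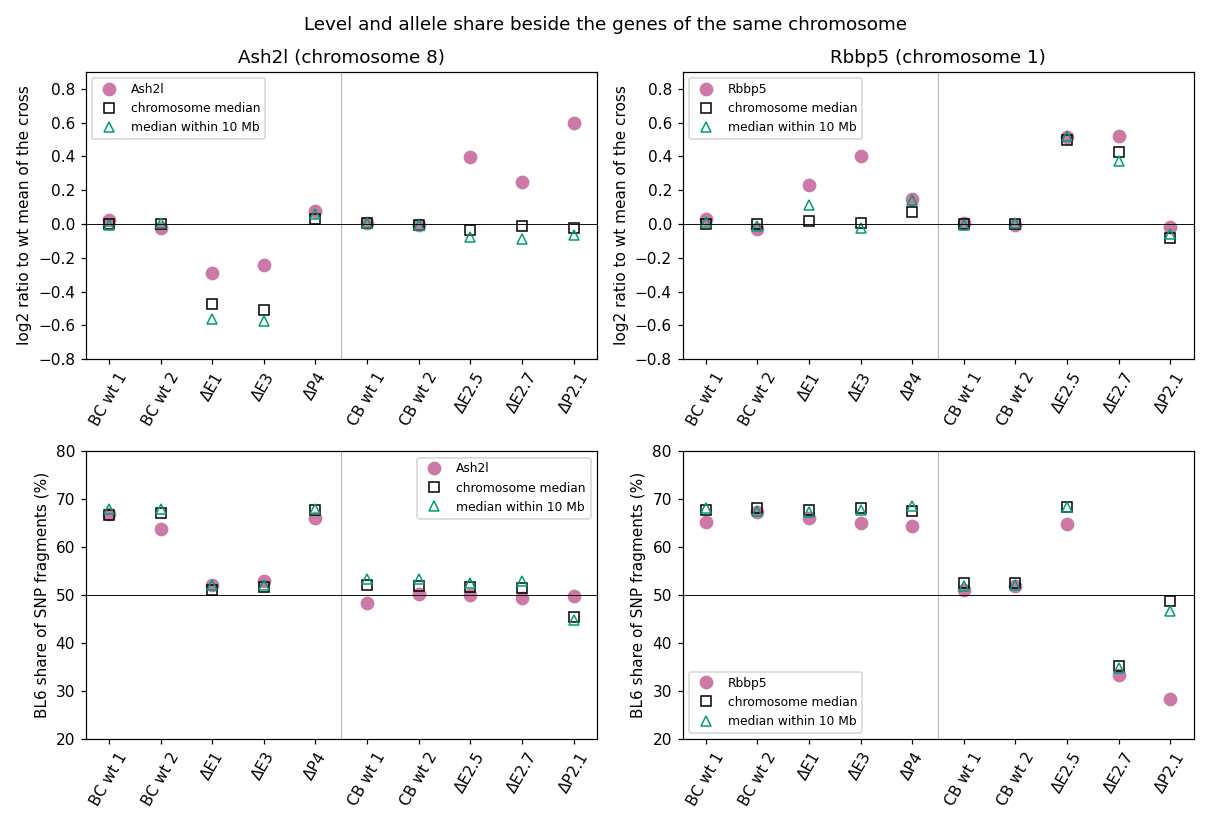
Upper panels show the log2 ratio to the wt mean of the cross for *Ash2l* (left) and *Rbbp5* (right, pink points) in the 10 male samples, with the median of other genes on the chromosome (squares) and within 10 Mb (triangles), and lower panels show the BL6 share of SNP fragments in percent for the same. In ΔE1 and ΔE3 *Ash2l* and chromosome 8 are low and near 50%, and in ΔE2.5 and ΔE2.7 *Rbbp5* and chromosome 1 are both high with shares on opposite sides of wt.

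Across the members tested, which were the 9 autosomal ones because X-linked *Kdm6a* has 1 allele in males, few changes of allelic balance were called. In the BC exonic clones *Ash2l* was called alone (1 of 9, against 4.84% of 9934 genes), and in ΔP4 0 of 9 were called (0.0302% of all genes). In the CB exonic clones 0 of 9 were called (0.0302% of all genes), and in ΔP2.1 0 of 9 (9.67% of all genes). For *Rbbp5* the opposite shares of ΔE2.5 and ΔE2.7 entered the spread of these tests, as given above. Exonic and promoter clones differed in *Ash2l* in BC (1 of 9, against 4.33%) and in *Kmt2d* in CB (1 of 9, against 9.86%). The BL6 share of *Kmt2d* was 45.8% and 43.0% in CB wt, 42.1% in ΔE2.5, 40.4% in ΔE2.7 and 48.7% in ΔP2.1, a log2 difference of -0.50 between exonic and promoter clones (SE 0.12, adjusted p = 0.0225), with ΔP2.1 above and both exonic clones below the wt samples. The median BL6 share of genes within 10 Mb of *Kmt2d* differed alike in ΔP2.1, at 52.3% against 48.3% and 47.8% in CB wt, 49.0% in ΔE2.5 and 46.8% in ΔE2.7, and its part in the value of *Kmt2d* was not tested. *Kdm6b* was expressed from both alleles in all samples, with a BL6 share of 42.8% to 48.9% in the male BC samples and 35.2% to 42.7% in the CB samples. *Kdm6a* itself was read from the maternal allele in male cells, with 901 and 1124 BL6 fragments against 0 and 1 *cast* fragments in BC wt, and 2 and 1 BL6 fragments against 570 and 572 *cast* fragments in CB wt. In the exonic clones the remaining fragments were maternal too, with 226 and 269 BL6 fragments in ΔE1 and ΔE3 and 19 and 78 *cast* fragments in ΔE2.5 and ΔE2.7, and none from the other allele.

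*Uty* could be measured apart from *Kdm6a*, since the transcripts share 0% of their 75-base stretches. In male BC cells it was at 9.30 and 9.65 TPM in wt, 11.3 (ΔE1), 2.02 (ΔE3) and 23.7 TPM (ΔP4) in the clones. In CB it was at 21.4 and 20.8 TPM in wt, 15.7 (ΔE2.5), 14.4 (ΔE2.7) and 18.6 TPM (ΔP2.1) in the clones. All CB clones were below wt, while the BC clones lay on both sides of it. ΔP4, 1 library, was above both BC wt samples by a log2 fold change of 1.23 (SE 0.71) that was not called. The study states that it saw no rise of *Uty* in any KO clone. The log2 fold change in KO was 0.32 in BC (SE 0.78, adjusted p = 0.906), turning to -0.52 without ΔP4, and -0.30 in CB (SE 0.12, adjusted p = 0.243), where it was called at -0.40 without ΔP2.1 (adjusted p = 0.0382).

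The other Y-linked genes above 1 TPM had a like order of samples in BC. *Ddx3y*, a helicase gene, was at 11.5 and 10.9 TPM in BC wt, 11.8 (ΔE1), 2.05 (ΔE3) and 19.4 TPM (ΔP4) in the clones. *Eif2s3y*, a translation factor gene, was at 0.248 TPM in ΔE3 and 2.35 TPM in ΔP4 beside 1.28 and 1.58 TPM in BC wt. The order of ΔE3, wt and ΔP4 was thus the same for *Uty* and both of these genes. *Eif2s3y* fell in the CB exonic clones (-3.76, SE 0.90, adjusted p = 0.0335 by edgeR). In CB *Eif2s3y* was at 46.4 and 46.7 TPM in wt against 0.902, 5.64 and 5.42 TPM in ΔE2.5, ΔE2.7 and ΔP2.1, and *Ddx3y* at 29.97 and 31.7 TPM against 28.3, 25.3 and 43.5 TPM. The part of the Y chromosome as a whole in the values of *Uty* was not tested.

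**Figure D4:**
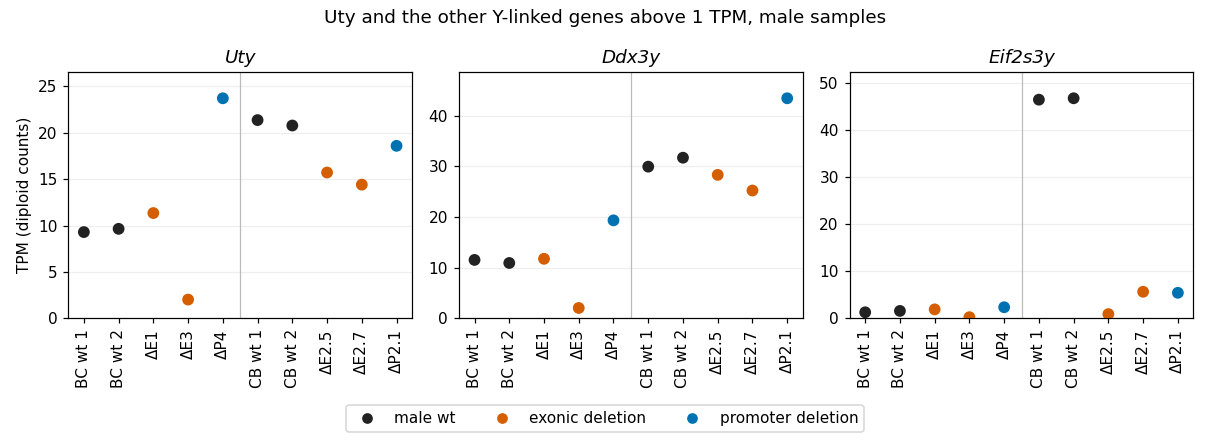
TPM (vertical axes, from 0) of *Uty*, *Ddx3y* and *Eif2s3y* in the 10 male samples, 1 point per sample, colored by genotype. ΔE3 is lowest and ΔP4 highest of the BC samples in all 3 panels, and *Eif2s3y* is far higher in the CB wt samples than in the CB clones.

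The female BC line gives the members' levels with 2 X chromosomes, as 1 line against another. *Kdm6a* was at 65.0 and 65.1 TPM there, a log2 difference from male wt of 0.31 (SE 0.07, adjusted p = 0.00142), and BL6 made up 52.4% and 53.9% of its SNP fragments. The median log2 ratio of 509 other X-linked genes was 0.86 and 0.80 in these samples and that of the 47 genes within 10 Mb was 1.18 and 0.95, beside 0.32 and 0.34 for *Kdm6a*, which thus lay below its chromosome. Of the members, 8 of 10 were called, 5 higher and 3 lower, but 76% of all genes tested were called too. Higher in the female line beside *Kdm6a* were *Kdm6b* (0.55, SE 0.10, adjusted p = 0.000494), *Kmt2c* (0.70, SE 0.08, adjusted p = 7.5e-06), *Ncoa6* (0.75, SE 0.08, adjusted p = 4.34e-06) and *Wdr5* (1.00, SE 0.07, adjusted p = 2.65e-07). Lower were *Ash2l* (-1.21, SE 0.07, adjusted p = 7.9e-08), *Dpy30* (-0.35, SE 0.07, adjusted p = 0.00104) and *Paxip1* (-0.30, SE 0.07, adjusted p = 0.00157). *Wdr5* was at 506 and 490 TPM in female wt against 235 and 244 TPM in male wt, and *Ash2l* at 326 and 305 TPM against 716 and 687 TPM. *Rbbp5* (-0.04, adjusted p = 0.625) and *Kmt2d* (0.08, adjusted p = 0.592) were not called, and the latter was called at 0.33 without male wt 1 (adjusted p = 0.000202) and turned to -0.14 without male wt 2. The medians of chromosome 8 and chromosome 1 were lower in the female samples too (-0.46 and -0.43, and -0.55 and -0.57 relative to male wt), so *Ash2l* lay lower than its chromosome and *Rbbp5* higher. The median BL6 share in the female samples was 44.2% and 44.5% on chromosome 8 and 48.3% and 48.4% on chromosome 1. Male BC wt, the reference, had the higher shares given above. Marker levels differed too, with a summed pluripotency level of 10035 and 10214 TPM in the female samples, a summed fibroblast level of 75.3 and 74.2 TPM and a summed primitive endoderm level of 10.2 and 10.6 TPM. Of these markers 5 of 8, 5 of 5 and 5 of 5 tested were called in either direction. Line, sex and these differences cannot be told apart here.

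Other genes of the pathway were read from lists of relatives. Of 14 genes of related H3K4 methyltransferase complexes, 0 were called by edgeR with all KO clones of either cross, where 0.029% (BC) and 0% (CB) of all genes were called. An unadjusted p under 0.05 was found for 0 of them in BC and 4 in CB. It was found for 1525 of all 13804 genes in BC and 2834 of all 13801 in CB. The median log2 fold change of the 14 was -0.11 in BC and 0.04 in CB. Among deletion types, *Cxxc1*, a CpG-binding subunit of the SET1 complexes, was the only 1 of the 14 called in the CB exonic clones, where 14.7% of all genes were called (0.41, SE 0.07, adjusted p = 0.00861), and rose from 93.5 and 94.6 TPM in wt to 118 and 120 TPM. *Setd1b*, a SET1 methyltransferase, differed between the BC exonic clones (26.0 and 19.3 TPM) and ΔP4 (12.9 TPM) by 0.89 (SE 0.21, adjusted p = 0.0418, where 6.37% of all genes were called), with wt at 22.8 and 17.5 TPM. Of the 8 H3K4 demethylases and H3K27 acetyltransferases, 7 were tested and 0 were called with all KO clones of either cross (in CB 1 had an unadjusted p under 0.05, in BC 0), against the same shares of all genes. *Kdm5b*, the 1 of 7 called in the CB exonic clones, which removes H3K4 methylation, was higher in the CB exonic clones at 294 and 276 TPM than in wt at 185 and 182 TPM (0.71, SE 0.07, adjusted p = 0.00152) and than in ΔP2.1 at 213 TPM (0.43, SE 0.08, adjusted p = 0.0225, where 5.79% of all genes were called). It lies on chromosome 1, whose median was raised in these clones. No other gene of these lists was called between KO clones and wt or between deletion types.

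No partner followed *Kdm6a* closely over the 12 samples. The correlation of log2 levels with *Kdm6a* lay between -0.44 for *Ash2l* and 0.37 for *Wdr5*, and was 0.36 for *Kdm6b*. The genes most like *Kdm6a* among 14666 were *Lnx2* (r = 0.86), *Med18* (0.83) and *Foxo4* (0.83). These are descriptions over samples that share cell lines and depth and were drawn from the highest of many values. On the log2 scale *Kdm6a* was at -9.87 in ΔP4 and -9.96 in ΔP2.1 relative to wt, against -1.91 to -4.56 in the exonic clones. The promoter clones, 1 library per cross, thus weigh most in all these correlations, which say little about graded change with *Kdm6a*.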

How the data were processed

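Male BC wt (n = 2), BC KO (n = 3), female BC wt (n = 2), CB wt (n = 2) and CB KO (n = 3) ES cells were profiled by RNA-seq with single-end reads of 75 bases from unstranded libraries. The authors mapped reads with TopHat and Bowtie2 2.2.5 to mm10 and a pseudo-*cast* genome, kept unique reads with MAPQ of at least 30, and deposited estimated counts per gene, with no normalization and no pooling: values for the BL6 genome, the *cast* genome and either of them (called diploid here), beside SNP-bearing fragments of each allele. How diploid fragments were counted is not stated. The diploid value was below the value of the BL6 genome alone in 51.6% to 57.8% of genes, and the latter was run as an alternative. SNP fragments were 17.8% to 18.2% of diploid ones, so allelic values are less precise.

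Here, estimated counts were rounded and tested with edgeR 4.0.16 (quasi-likelihood, TMM, Benjamini-Hochberg over the genes that passed 1 TPM in any sample fitted). *Sh3kbp1*, *Map3k15* and *Pdha1* were left out where ΔE1 and ΔE3 entered. BC and CB were fitted alone (n = 5 each), together with the cross as covariate, and by deletion type over 12 samples in 7 groups. Allelic balance was tested with BL6 and *cast* columns of each sample as a block, for autosomal genes whose SNP fragments numbered 20 or more in each library. TPM used GENCODE transcript lengths for 23310 genes matched by symbol and the median of 2285 bp for 1036 others. DESeq2 1.42.0, RLE scaling, no filter, BL6-mapped counts, TMM without chromosomes 1 and 8, ΔE1 and ΔE3 averaged, a replicate block, the union of exons as length and leaving out each sample were alternatives. Replicates differed by more than counting error on average (mean chi-square 15.9 to 117 per gene), so none was treated as a duplicate, but the median gene of the CB wt pair differed little (median chi-square 0.699, against 1.88 to 14.4 in the other pairs), and the small spread of this pair enters the CB comparisons. The tests were tested on simulated counts.

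The members and gene lists were chosen with earlier results of these data known. Named were all members, *Uty* and *Pagr1a*, other genes of the pathway lists where called in a KO comparison, and the 3 genes most correlated with *Kdm6a*, while *Ddx3y* was added after its values were seen. Guide sequences and positions came from the study's supplementary table.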

Additional observations from a re-analysis of the deposited data

Results flagged for a closer look

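Exonic and promoter clones of the same cross differed from each other, by a test of the difference itself, in 5 values of these genes. *Kdm6a* was higher in exonic than in promoter clones by 8.21 in BC and 6.98 in CB on the log2 scale, where the exonic clones keep the promoter and most exons. *Rbbp5* was higher in the CB exonic clones than in ΔP2.1 by 0.54. The BL6-to-*cast* ratio of *Ash2l* was lower in the BC exonic clones than in ΔP4 (-0.76), and that of *Kmt2d* was lower in the CB exonic clones than in ΔP2.1 (-0.50). With 1 promoter clone per cross, deletion type and clone cannot be told apart.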

How the results depend on the processing

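With 2 wt samples and 1 to 3 clones per group, each call of a partner subunit's level in KO clones against wt was lost when 1 wt library was left out, as given beside it. Calls over all genes fell as well, to 1.39% and 1.5% in BC exonic clones and 1.79% and 1.95% in CB exonic clones. Among 11 comparisons of levels and 6 of allelic balance, the number of members called moved by over 1.5 times in those that follow. DESeq2 called 3 in CB KO, 4 in BC exonic clones, 2 in ΔP4 and 2 between exonic and promoter BC clones, where it called 8.38%, 13%, 10.1% and 12% of all genes. No filter left 1 in BC exonic clones (5.75% of all genes), and TMM without chromosomes 1 and 8 gave 2 between exonic and promoter BC clones (6.69%). The latter kept 2 in BC exonic clones, with *Ash2l* in place of *Rbbp5*, and called 6 in CB exonic clones (15% of all genes). Leaving out 1 sample gave 0 to 1 in BC KO, 0 to 2 in CB KO, 0 to 5 in BC exonic clones (the 5 without ΔE1, where 25.6% of all genes were called), 1 to 4 in CB exonic clones, 1 to 1 in ΔP2.1, 2 to 3 between exonic and promoter BC clones, and for allelic balance 0 to 1 in CB exonic clones and 1 to 2 between exonic and promoter CB clones. Signs turned for *Kmt2c* in ΔP4 with no filter (-0.0094) and, when 1 sample was left out, for 12 values that were not called, which ranged as follows. In BC KO *Ncoa6* ranged from -0.039 to 0.077, *Wdr5* from -0.052 to 0.17 and *Uty* from -0.52 to 0.82, and in CB KO *Kdm6b* from -0.035 to 0.15. In BC exonic clones *Ncoa6* ranged from -0.087 to 0.023 and *Wdr5* from -0.059 to 0.37, and in CB exonic clones *Kmt2d* from -0.31 to 0.051. In ΔP4 *Kdm6b* ranged from -0.24 to 0.089, *Kmt2c* from -0.068 to 0.089 and *Kmt2d* from -0.31 to 0.15. Between female and male wt *Kmt2d* ranged from -0.14 to 0.33 and *Rbbp5* from -0.10 to 0.025.

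The replicate block, paired by number between female and male BC wt, called 8 members, as without it, and 78.5% of all genes against 76%. It was run for this comparison only. Samples of the same number deviated together weakly (r = 0.186 over 14667 genes), and the labels give them only a shared number. The labels give no pairing of KO and wt, because the clones carry no replicate numbers. The split of the male BC libraries by the SNP shares of *Ash2l* and *Dpy30* was not used as a block, and its part in the BC comparisons was not tested. Fold changes with RLE scaling, BL6-mapped counts and ΔE1 and ΔE3 averaged stayed on the same side of zero and of the threshold in every value computed. Mean TPM moved by more than the replicate SD in 37 of 50 group values with the union of exons as length, and BL6 shares moved in 33 of 36 values when divided by the autosomal ratio of the library. Causes of these changes were not tested.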
